A study of Mus musculus with 9 samples.

Results

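Afp, H19 and 3 genes tied to their control were followed across mouse melanomas that differ in histamine production. The genes were Afp, H19, Gpc3, Zhx2 and Zbtb20, 5 of the 17550 genes that had a symbol on the array. They were represented by 6 probes, 2 of them for H19 and 1 for each other gene, out of 41174 distinct probes. Afp was selected on its log2 ratios of tumour over reference in these same arrays, which were higher in HDC-A, so its values are a description and carry no test. The other 4 genes were chosen for what is known of their link to Afp, although earlier results of these data were known by then. They were tested.

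The tumours grew from variants of B16-F10, a mouse melanoma cell line, altered in their level of HDC. HDC is L-histidine decarboxylase, which turns histidine into histamine. Tumours of B16-F10 HDC-A come from cells with a diminished output of histamine, those of HDC-S from cells with an enhanced output, and those of HDC-M from cells whose output was left unmodified. Each group held 6 tumours, and RNA of randomly chosen tumours was pooled 2 at a time, which gave 3 pools per group and 9 arrays. Each array compared a tumour pool, labelled with Cy5, with a Cy3-labelled reference that was the same throughout, RNA of HDC-M cells grown in culture. All groups share the B16-F10 background and each stands for 1 line variant, so the level of histamine and other features of a variant cannot be told apart. The p-values measure the spread between pools. The mouse strain, sex and age of the hosts are not given in the sources used here.

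Afp encodes alpha-fetoprotein, the main plasma protein of the fetus, made by yolk sac and fetal liver and shut down in liver after birth. H19 is an imprinted long noncoding RNA, expressed from the maternal chromosome and also repressed after birth in liver, and it is the host of the microRNA miR-675. Gpc3 encodes glypican 3, a heparan sulfate proteoglycan of the cell surface that is abundant in the embryo and, like Afp and H19, returns in liver tumours. Zhx2 and Zbtb20 encode zinc finger proteins that repress Afp in the postnatal mouse liver. Zhx2 was found through a mouse strain that keeps Afp and H19 on in the adult liver, and Gpc3 is under the same control there.

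Afp lies beside the albumin gene Alb on mouse chromosome 5, and both are transcribed in hepatocytes. The windows around the RefSeq start sites of both genes (250 bases before and 50 after, GRCm38.p6) are printed because Afp was the member with a signal that differed between tumours and Alb is its neighbour and a member of the same gene family. Capitals mark the motifs searched on both strands: the nuclear factor I core TTGGCA and the TATA box TATAAA. The forkhead core TGTTTAC was searched too.
Afp, chr5:90490464-90490763, plus strand: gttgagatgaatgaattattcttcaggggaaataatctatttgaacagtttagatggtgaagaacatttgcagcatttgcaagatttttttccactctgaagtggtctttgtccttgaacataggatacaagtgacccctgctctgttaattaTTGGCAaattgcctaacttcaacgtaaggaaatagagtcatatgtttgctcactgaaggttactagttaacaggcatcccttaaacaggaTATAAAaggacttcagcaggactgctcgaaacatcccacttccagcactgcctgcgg
Alb, chr5:90460620-90460919, plus strand: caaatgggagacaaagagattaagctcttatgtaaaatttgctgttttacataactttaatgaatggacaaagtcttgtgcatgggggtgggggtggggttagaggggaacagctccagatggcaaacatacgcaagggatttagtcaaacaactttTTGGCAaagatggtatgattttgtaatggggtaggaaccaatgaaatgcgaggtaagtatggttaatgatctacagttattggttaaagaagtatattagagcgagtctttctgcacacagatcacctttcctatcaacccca
The Afp window held TTGGCA from 97 to 92 bases before the start and TATAAA from 7 to 2. The Alb window held TTGGCA from 93 to 88 bases before the start. TTGGCA occurred in 14.1% of the 32817 mouse promoter windows of this length, TATAAA in 13.6% and TGTTTAC in 3.65%. The letters searched were not in the windows of Gpc3 and Zbtb20. These matches are descriptions of letters and not evidence of binding.

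The mature miR-675 arms, which are cut from the H19 transcript, are shown because the H19 signal below is that of their host RNA. The arrays did not measure them. Their seeds, bases 2 to 8, are in capitals, and the sequences are those of RefSeq on GRCm38.p6, chromosome 7.
mmu-miR-675-5p: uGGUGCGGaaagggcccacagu
mmu-miR-675-3p: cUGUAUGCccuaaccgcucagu
The seeds of both arms differ in sequence, so they fall into separate seed groups.

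The signal of a tumour pool is given as the normalised log2 ratio of Cy5 over Cy3, where 0 means equal brightness in tumour and cultured reference. How far a probe stood above background is given as its raw Cy5 brightness over the median of the 314 negative control spots of its array. The scanner software flags a spot as well above background by its own test. The Cy5 flag was set at 58.0% to 69.7% of probe spots per array and at 1.59% to 4.14% of negative controls. In Cy3 it was set at 95.2% to 99.7% of negative controls, so it carries no information there. The tumours were of melanocytic type: all 8 melanocyte markers measured, among them Tyr, Dct, Pmel and Mitf, were well above background on all 9 arrays. Pearson correlations between arrays over probes were 0.896 to 0.949 for arrays of the same group and 0.859 to 0.920 for arrays of different groups. In tumour RNA of this kind, fewer cells of a type and less RNA per cell cannot be told apart.

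**Figure D1:**
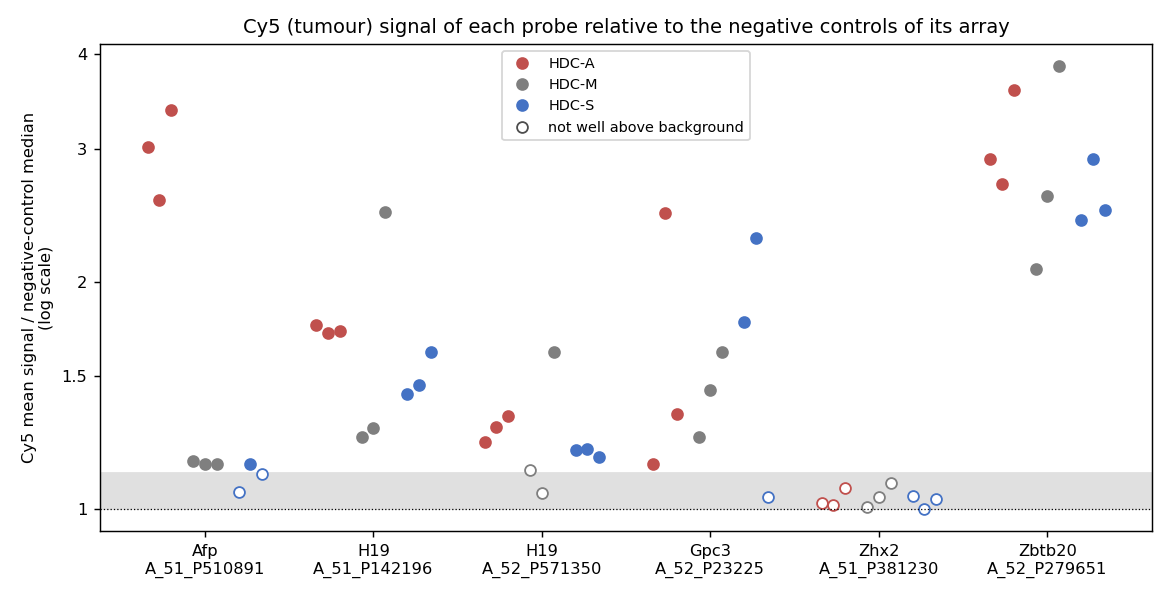
Raw Cy5 (tumour) signal of each probe on each of the 9 arrays, divided by the negative-control median of that array, on a log axis. Open points were not flagged as well above background, and the grey band runs from 1 to the highest 95th percentile of the negative controls on any array. Afp in HDC-A reaches 2.56 to 3.38, while Afp in the other groups and Zhx2 on every array stay within 1.16.

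Afp was brighter in each HDC-A pool than in any HDC-M or HDC-S pool. The log2 ratio of its probe, A_51_P510891, was 0.87, 0.74 and 1.05 in the 3 HDC-A pools. It was -0.27, -0.32 and -0.08 in HDC-M, and -0.34, -0.37 and -0.21 in HDC-S. The HDC-A values did not overlap with those of either other group, and HDC-M and HDC-S overlapped with each other. HDC-A lay wholly above HDC-M for 9.84% of all probes compared, and HDC-S wholly below HDC-A for 10.8%. The group means were 0.89 ± 0.16 for HDC-A, -0.22 ± 0.12 for HDC-M and -0.30 ± 0.08 for HDC-S (SD, n = 3).

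The difference of these means was 1.11 for HDC-A minus HDC-M, -0.08 for HDC-S minus HDC-M and -1.19 for HDC-S minus HDC-A, on the log2 scale. No exact fold is read from them, since Afp lay close to background outside HDC-A and was well above it on 1 of 3 HDC-S arrays.

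The size of the Afp difference depended on the processing, and its sign did not turn in any of 18 alternative settings. Since Afp was selected on these same arrays, the settings describe its size and are no support for a difference. With no filter, and with the replicate number or scan day as a block, HDC-A minus HDC-M stayed at 1.11 by construction. In the authors' value table, which gives the scanner's background-subtracted ratio, HDC-A exceeded HDC-M by 2.49 and HDC-S was below HDC-A (a difference of -2.76). Without any background correction the HDC-A minus HDC-M difference was 0.87. With median centring it was 1.47, and with the Cy5 channel alone 1.43. The arrays were scanned on 2 days. Within the first day, with 2 pools per group, the difference was 1.099, and on the second, with 1 pool per group, 1.14.

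**Figure D2:**
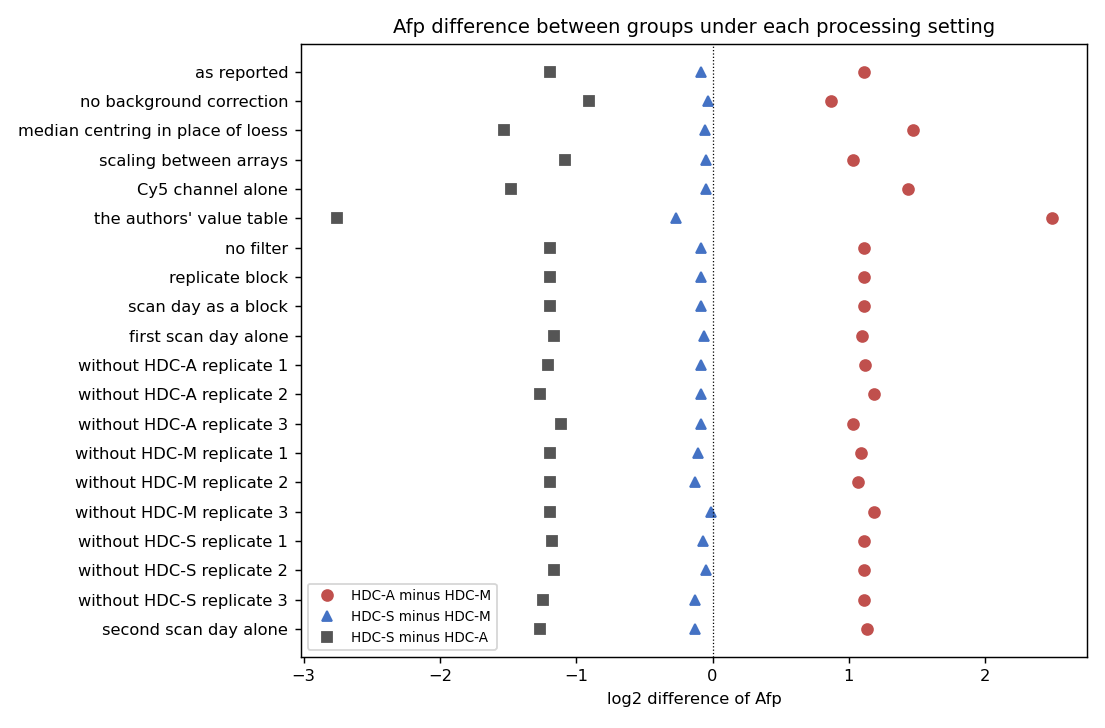
Difference of Afp between groups (horizontal axis, log2) under each processing setting (rows). HDC-A minus HDC-M runs from 0.87 to 2.49 and HDC-S minus HDC-A from -2.76 to -0.91, each on 1 side of 0 throughout, and HDC-S minus HDC-M lies between -0.27 and -0.01.

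The raw brightness shows where Afp lay relative to background. In HDC-A the Cy5 brightness was 199, 165 and 218 scanner units, 3.01, 2.56 and 3.38 times the negative-control median. In HDC-M it was 77.3, 70.6 and 73.6 units, 1.15 to 1.16 times that median. In HDC-S it was 69.1, 71.3 and 70.7 units, 1.05 to 1.15 times that median. The Cy3 brightness of the cultured HDC-M cells was 1.09 to 1.18 times the negative-control median on the 9 arrays. The flag marked Afp as well above background on 3 of 3 arrays of HDC-A, 3 of 3 of HDC-M and 1 of 3 of HDC-S. Describing Afp as on in HDC-A tumours alone is therefore stronger than the flags, although its HDC-M signal was no more than 1.03 to 1.06 times the 95th percentile of the negative controls.

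H19 did not pass the test in any comparison. Its probe A_51_P142196 had log2 ratios of 0.29, 0.53 and 0.12 for HDC-A, of 0.32, 0.41 and 0.07 for HDC-M and of 0.11, 0.27 and 0.22 for HDC-S. The 3 groups overlapped. Their means were 0.32 ± 0.20, 0.26 ± 0.18 and 0.20 ± 0.08 (SD, n = 3). HDC-A minus HDC-M was 0.05 (95% interval -0.21 to 0.31, limma adjusted p = 0.884). HDC-S minus HDC-M was -0.06 (limma adjusted p = 0.861) and HDC-S minus HDC-A was -0.11 (limma adjusted p = 0.685). An exact permutation test gave p = 0.8, 0.6 and 0.4, where 0.1 is the smallest that 3 pools against 3 allow.

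H19 was nevertheless above background in the tumours. The flag was set on 9 of 9 arrays for this probe, with Cy5 brightness 1.24 to 2.47 times the negative-control median. The highest of these values came from HDC-M replicate 3, which was also the brightest in Cy3, at 1.35 times the negative-control median. The log2 ratio of that array was 0.07, the lowest of all 9. Without it HDC-A minus HDC-M was -0.05.

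The second H19 probe, A_52_P571350, was dimmer. Its log2 ratios were -0.20, 0.11 and 0.00 in HDC-A, -0.11, 0.13 and -0.08 in HDC-M, and -0.17, -0.16 and -0.15 in HDC-S. All 3 HDC-S values lay below all HDC-M values, as they did for 10.1% of the 25977 probes compared. The difference of -0.14 missed the threshold (95% interval -0.35 to 0.06, limma adjusted p = 0.528, exact permutation p = 0.1). HDC-A minus HDC-M was -0.01 and HDC-S minus HDC-A was -0.13 (limma adjusted p = 0.971 and 0.509). The flag was set on 3 of 3 arrays of HDC-A, 1 of 3 of HDC-M and 3 of 3 of HDC-S. Both H19 probes were named through the product name in the array's annotation, and neither has a replicate spot.

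Gpc3 did not pass the test in any comparison, and its pools differed more among themselves than those of the other members. The log2 ratios of probe A_52_P23225 were 0.36, 1.14 and 0.73 in HDC-A, 0.60, 0.57 and 0.24 in HDC-M, and 1.07, 1.18 and 0.22 in HDC-S. The groups overlapped, with means of 0.74 ± 0.39, 0.47 ± 0.20 and 0.82 ± 0.53 (SD, n = 3). HDC-A minus HDC-M was 0.27 (95% interval -0.32 to 0.86, limma adjusted p = 0.686). HDC-S minus HDC-M was 0.35 (95% interval -0.24 to 0.94, limma adjusted p = 0.596). HDC-S minus HDC-A was 0.08 (95% interval -0.51 to 0.67, limma adjusted p = 0.923).

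Gpc3 had a positive log2 ratio on all 9 arrays. Its Cy3 brightness was 0.87 to 0.95 times the negative-control median, so the ratio has a denominator at background. The Cy5 flag was set on 3 of 3 arrays of HDC-A, 3 of 3 of HDC-M and 2 of 3 of HDC-S, the exception being HDC-S replicate 3 with a brightness of 1.04 times the negative-control median. In each group the pool with the highest Gpc3 also had the highest mean of the fibroblast markers and of the skeletal muscle markers. The same pools were highest for the imprinted, oncofetal and Zhx2-responsive gene lists described below. The imprinted and fibroblast lists share the gene Dcn. For macrophage and endothelial markers the highest HDC-M pool was replicate 2, with means of 2.02 and 1.18. Of the 9 fibroblast markers, 8 had a value on every array. The mean log2 ratio of the markers with a value was 2.40, 3.98 and 2.62 in HDC-A, 2.90, 2.79 and 2.30 in HDC-M, and 2.67, 3.26 and 2.06 in HDC-S. The part of fibroblasts or muscle in the Gpc3 values was not tested. Leaving out HDC-S replicate 3 raised HDC-S minus HDC-M from 0.35 to 0.65, which still missed the threshold (limma adjusted p = 0.257).

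Zhx2, the repressor for which the strain difference in adult Afp is known, gave no signal above background in any tumour. Its probe, A_51_P381230, was flagged on 0 of 9 arrays, and its Cy5 brightness was 0.998 to 1.08 times the negative-control median. It was therefore outside the probes tested, and a difference between groups was not detectable with it. With no filter on dim probes, its differences were 0.01 for HDC-A against HDC-M, 0.03 for HDC-S against HDC-M and 0.02 for HDC-S against HDC-A (limma adjusted p = 0.979, 0.934 and 0.958). Both channels lay at background, so these values say nothing about a change of Zhx2.

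Zbtb20, the other repressor, was measured in every tumour and did not pass the test in any comparison. The log2 ratios of probe A_52_P279651 were 0.32, 0.25 and 0.32 in HDC-A, 0.27, 0.23 and 0.37 in HDC-M, and 0.11, 0.40 and 0.58 in HDC-S. The groups overlapped, and the HDC-S pools held both the lowest and the highest value. Means were 0.30 ± 0.04, 0.29 ± 0.07 and 0.36 ± 0.24 (SD, n = 3). HDC-A minus HDC-M was 0.01 (95% interval -0.23 to 0.25, limma adjusted p = 0.987), HDC-S minus HDC-M was 0.07 (limma adjusted p = 0.825) and HDC-S minus HDC-A was 0.07 (limma adjusted p = 0.823). The flag was set on 9 of 9 arrays, with Cy5 brightness 2.08 to 3.86 times the negative-control median.

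**Figure D3:**
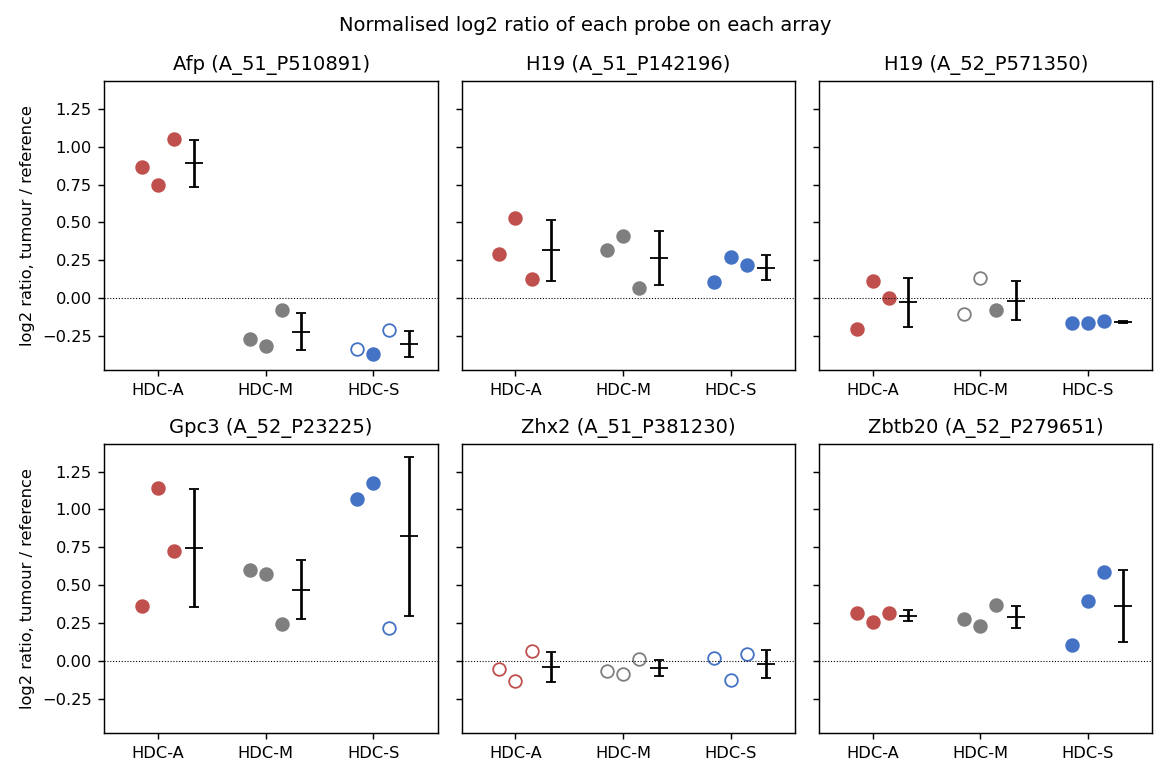
Normalised log2 ratio of tumour over reference for the 6 probes, with 3 pools per group as points and the mean with its SD beside them. Open points were not well above background in Cy5. Afp is the probe whose HDC-A pools, at 0.74 to 1.05, lie apart from all others, and the groups of H19 probe A_51_P142196, Gpc3 and Zbtb20 overlap.

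Of the 4 tested probes of H19, Gpc3 and Zbtb20, 0 passed in HDC-A against HDC-M, where 1.44% of probes passed. In HDC-S against HDC-M 0 passed, where 0.681% of 26868 probes did, and in HDC-S against HDC-A 0 passed, where 5.26% did. At an unadjusted limma p of 0.05 the count was also 0 in each comparison, where 17.9%, 16.3% and 22.6% of the 13452 genes with a symbol were. Beside shares of that size, 0 of 4 is no result about these genes. On the first scan day alone, HDC-A minus HDC-M was 0.05 and -0.06 for the H19 probes, 0.17 for Gpc3 and 0.03 for Zbtb20, and on the second day 0.06, 0.08, 0.48 and -0.05.

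**Figure D4:**
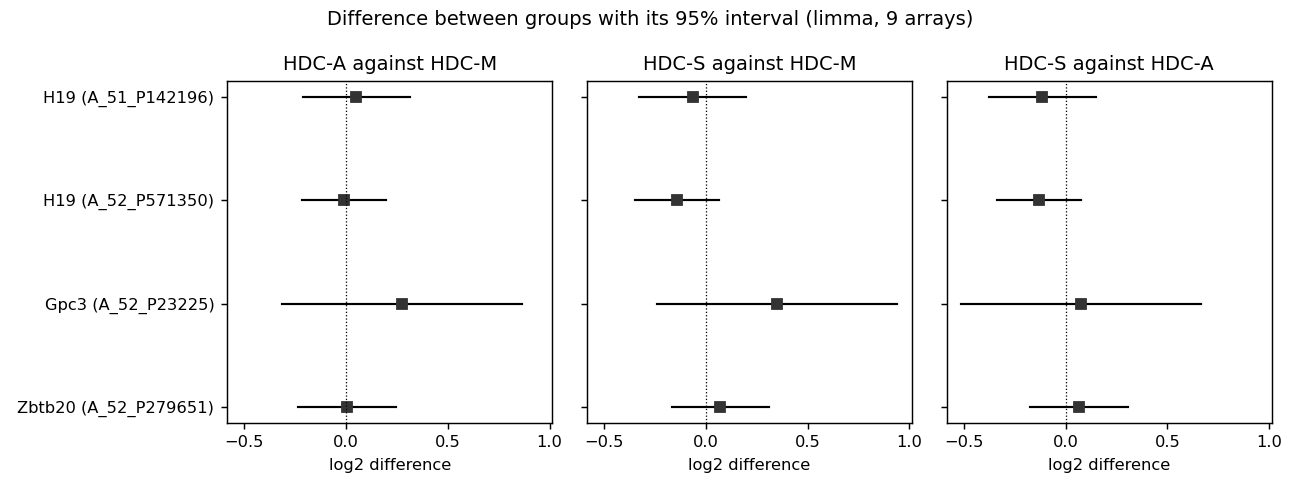
Difference between groups for each tested probe (squares, log2) with its 95% interval from limma over all 9 arrays. The intervals of H19, Gpc3 and Zbtb20 include 0 in all 3 comparisons. Afp, which was not tested, is not drawn.

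Of the other members of the albumin family only Gc was tested, and it did not pass. Alb, the major plasma protein of adult liver, and Afm, which encodes afamin, were flagged on 0 of 9 arrays. Gc, the vitamin D binding protein, had a log2 ratio of -0.04 ± 0.11 in HDC-A and 0.02 ± 0.003 in HDC-M (SD, n = 3), a difference of -0.06 (limma adjusted p = 0.711). The Gc flag was set on 3 of 3 arrays of HDC-A, 1 of 3 of HDC-M and 3 of 3 of HDC-S, so Gc was close to background in HDC-M. Of 15 hepatocyte and visceral endoderm genes, 13 were on the array and 6 were measured, and Alb, Ttr and Fgb, which encode albumin, transthyretin and fibrinogen beta, were flagged on 0 of 9 arrays. The summed normalised Cy5 signal of those 6 ranged from 1045 to 1143 for HDC-A, from 1023 to 1125 for HDC-M and from 1069 to 1420 for HDC-S. Of these genes 0 passed in HDC-A against HDC-M, with 0 at an unadjusted p of 0.05. In that comparison 1.44% of all probes passed, and 17.9% of all genes were under that p. Ahsg, which encodes fetuin A, a fetal plasma protein, rose in HDC-S, by 0.73 against HDC-M (limma adjusted p = 0.0283) and by 0.63 against HDC-A (limma adjusted p = 0.0137). Its call against HDC-M held in 3 of the 9 fits that left out 1 array and was lost without any single HDC-M or HDC-S array, and the call against HDC-A held in 9 of 9.

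Of 21 transcription factors that bind the Afp promoter or enhancers, 17 were measured. None passed in HDC-A against HDC-M (2 at an unadjusted p of 0.05) or in HDC-S against HDC-M (4 at that level), and 2 passed in HDC-S against HDC-A (7 at that level). Over all 13452 genes tested, 17.9%, 16.3% and 22.6% were under an unadjusted p of 0.05 in these comparisons, and 51.3%, 52.0% and 50.1% were on the higher side. Their median difference was -0.02 in HDC-A against HDC-M, beside 0.004 over the 13452 genes tested. Foxa1 and Foxa2, forkhead factors that open liver enhancers, were flagged on 0 of 9 arrays, and Foxa3 on 1. Hnf4a, a nuclear receptor of hepatocytes, was measured and had a difference of 0.08 in HDC-A against HDC-M (limma adjusted p = 0.7). Smad4, the common mediator of TGF-beta signalling, was higher in HDC-S than in HDC-A by 0.40 (limma adjusted p = 0.00814), with means of -0.32 ± 0.06 and -0.73 ± 0.01 (SD, n = 3). A second Smad4 probe gave 0.19 and missed the threshold (limma adjusted p = 0.111). Smad2, a receptor-activated partner of Smad4, was higher by 0.24 (limma adjusted p = 0.0484), a call lost in each of the 9 fits without 1 array. Among those that did not pass, Nfib, of the nuclear factor I family, was at -0.31 in HDC-A against HDC-M, and Nfic and Nfia, of the same family, at -0.29 and -0.28 in HDC-S against HDC-M (limma adjusted p = 0.14, 0.0699 and 0.0718). The fourth gene of the family, Nfix, was at -0.02 and 0.06 in these comparisons (limma adjusted p = 0.967 and 0.878).

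The listed partners and targets of the repressors held no call. Of all probes, 1.44% passed in HDC-A against HDC-M, 0.681% in HDC-S against HDC-M and 5.26% in HDC-S against HDC-A. Over all genes with a symbol, 17.9%, 16.3% and 22.6% were under an unadjusted limma p of 0.05. Beside these shares, no call among so few genes is no result about them. The ZHX proteins bind NF-Y, a factor of CCAAT boxes, and all 5 listed genes of these families were measured. None passed in any comparison, with 0 at an unadjusted p of 0.05 in each. In HDC-A against HDC-M Zhx1 was at -0.08 and Nfyc at -0.07 (limma adjusted p = 0.628 and 0.72). The other measured probe of Zhx1 had the opposite sign. In HDC-S against HDC-M Nfya was at 0.16 and Zhx3 at -0.09 (limma adjusted p = 0.428 and 0.574). Of 9 genes known to respond to Zhx2 in adult mouse liver, 6 were measured and none passed, with 2 at an unadjusted p of 0.05 in HDC-A against HDC-M, 1 in HDC-S against HDC-M and 0 in HDC-S against HDC-A. Lpl, lipoprotein lipase, was at 0.59 and Elovl3, a fatty acid elongase, at -0.46 in HDC-A against HDC-M (limma adjusted p = 0.243 and 0.246). Mup1 and Mup3, major urinary protein genes whose near-identical copies can share a probe, were at -0.53 and -0.08 in HDC-S against HDC-A (limma adjusted p = 0.502 and 0.703).

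H19 belongs to a network of imprinted growth genes, of which 13 of 16 listed were measured. In HDC-A against HDC-M none passed (2 at an unadjusted p of 0.05), and 10 of 13 were higher, with a median of 0.21, where over all genes 17.9% were under that p and 51.3% were higher. Igf2, the paternally expressed neighbour of H19, was flagged on 1 of 9 arrays and was not tested. Igf2r, which encodes the receptor that clears IGF2, fell in HDC-S. Its means were 1.27 ± 0.11 for HDC-A, 1.16 ± 0.08 for HDC-M and 0.32 ± 0.03 for HDC-S (SD, n = 3). The differences were -0.84 against HDC-M and -0.95 against HDC-A (limma adjusted p = 0.00436 and 0.00152), and both calls held in 9 of 9 fits without 1 array. Cdkn1c, a cyclin-dependent kinase inhibitor, was lower in HDC-S than in HDC-A by 0.54, a difference of -0.54 (limma adjusted p = 0.0149), and the call was lost without HDC-S replicate 1 or HDC-S replicate 3. Dlk1, which encodes a fetal transmembrane protein, was at 0.53 in HDC-A against HDC-M (limma adjusted p = 0.198). Its other measured probe had the opposite sign there. Of 8 genes that control imprinting at the H19 domain, 6 were measured and none passed. In each comparison 0 of the 6 were under an unadjusted p of 0.05, beside 16.3% to 22.6% of all genes. Among them were Ctcf, the insulator protein that binds between Igf2 and H19, at -0.09 in HDC-S against HDC-M, and Dnmt3a, a DNA methyltransferase, at 0.18 in HDC-A against HDC-M (limma adjusted p = 0.495 and 0.339). Trim28, a corepressor of imprinted loci, and Dnmt3b, another methyltransferase, were at 0.20 and 0.23 in HDC-S against HDC-A (limma adjusted p = 0.289 and 0.3).

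Of 5 other glypicans 3 were measured and none passed, with 1 at an unadjusted p of 0.05 in HDC-A against HDC-M, 0 in HDC-S against HDC-M and 1 in HDC-S against HDC-A. Over all genes, 17.9%, 16.3% and 22.6% were under that p in these comparisons, and 51.3% were higher in HDC-A against HDC-M. With 3 genes these counts are no result about the family. Gpc1 was at 0.36 in HDC-A against HDC-M (limma adjusted p = 0.0564), Gpc6 at 0.26 and Gpc4 at 0.37 (limma adjusted p = 0.415 and 0.446), so all 3 were on the higher side there. In HDC-S against HDC-M Gpc1 was at 0.08 and Gpc4 at 0.02 (limma adjusted p = 0.723 and 0.978). Of 12 oncofetal and progenitor genes 9 were measured. Hmga2, a chromatin protein of the embryo, was higher in HDC-A by 0.68 than in HDC-M (limma adjusted p = 0.00407), and the HDC-S minus HDC-A difference was -0.62 (limma adjusted p = 0.0033). Its means were 0.92 ± 0.07 for HDC-A, 0.24 ± 0.04 for HDC-M and 0.30 ± 0.08 for HDC-S (SD, n = 3), and both calls held in 9 of 9 fits without 1 array. The gene has another measured probe, which gave 0.19 and -0.09 in those comparisons and did not pass (limma adjusted p = 0.675 and 0.851). Igf2bp3, a fetal RNA-binding protein of Igf2 mRNA, was at 0.53 in HDC-A and 0.58 in HDC-S against HDC-M (limma adjusted p = 0.0561 and 0.0644). Epcam, an epithelial adhesion protein, was well above background on 2 of 3 HDC-M arrays and not well above it on any HDC-S array, and it did not pass (limma adjusted p = 0.211).

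Levels of markers of other cells were compared across the same pools. In HDC-A against HDC-M all 13 skeletal muscle markers were on the higher side, with a median of 0.64, and so were 8 of 9 fibroblast markers, with a median of 0.48, and none of either passed (6 and 0 at an unadjusted p of 0.05, beside 17.9% of all genes, of which 51.3% were on the higher side). In HDC-S against HDC-A all 13 muscle and 9 of 9 fibroblast markers were on the lower side, with medians of -0.86 and -0.48, and none passed (2 and 0 at an unadjusted p of 0.05, beside 22.6% of all genes). The summed normalised Cy5 signal of the 12 muscle markers with a value on every array ranged from 4174 to 22311 for HDC-A, from 3126 to 8994 for HDC-M and from 1649 to 10139 for HDC-S. That of 8 such fibroblast markers ranged from 9695 to 35634 for HDC-A, from 11787 to 12416 for HDC-M and from 6037 to 18296 for HDC-S. The 7 such melanocyte markers summed to 72807 to 75793 for HDC-A, 86174 to 102273 for HDC-M and 61809 to 78693 for HDC-S, and 6 of the 8 measured were lower in HDC-A than in HDC-M with 0 past the threshold (5 at an unadjusted p of 0.05). In HDC-S against HDC-A 5 of the 8 were higher and the median was 0.02. In HDC-S, Oca2, a melanosome protein, fell by 1.02 against HDC-M and by 0.62 against HDC-A (limma adjusted p = 0.0118 and 0.0171), and Tyr, tyrosinase, fell by 0.48 against HDC-A (limma adjusted p = 0.0121). The Oca2 call against HDC-M was lost without HDC-M replicate 1, HDC-M replicate 2 or HDC-S replicate 1, that against HDC-A without HDC-A replicate 1, HDC-A replicate 3 or HDC-S replicate 3, and the Tyr call without HDC-S replicate 3. Macrophage markers had a median of 0.32, endothelial markers of 0.28 and keratinocyte markers of -0.56 in HDC-A against HDC-M, with 0 of 8, 0 of 7 and 0 of 7 past the threshold (0 at an unadjusted p of 0.05 in each). In HDC-S against HDC-M the keratinocyte markers had a median of -1.65, with 0 of 7 past the threshold (6 at an unadjusted p of 0.05, beside 16.3% of all genes). Within HDC-A, replicate 2 had the highest muscle and fibroblast means and the lowest Afp. The part of these cells in the Afp difference was not tested.

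The 5 genes whose profile over the 9 arrays was nearest to that of Afp were Emb, Cdkn1a, Ccng1, Zfp618 and Psrc1. Likeness was the mean absolute difference of log2 ratios after each probe's own mean was subtracted, and it was 0.092 for Emb, 0.148 for Cdkn1a and for Ccng1, 0.165 for Zfp618 and 0.175 for Psrc1. Emb encodes embigin, an adhesion glycoprotein, and had a mean of 1.07 ± 0.11 for HDC-A, 0.11 ± 0.17 for HDC-M and 0.10 ± 0.04 for HDC-S (SD, n = 3). Cdkn1a, an inhibitor of cyclin-dependent kinases, had means of 0.41 ± 0.22, -0.56 ± 0.07 and -0.46 ± 0.07. Ccng1, cyclin G1, was below the reference in every pool, with means of -0.59 ± 0.25, -1.40 ± 0.09 and -1.56 ± 0.19. Zfp618, a zinc finger protein, had means of 0.92 ± 0.07, 0.07 ± 0.21 and 0.13 ± 0.09, and Psrc1, a microtubule-associated protein, had 1.22 ± 0.26, 0.50 ± 0.08 and 0.20 ± 0.19. These genes were picked for likeness, so the values are a description with no test, and all were well above background on 9 of 9 arrays.

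**Figure D5:**
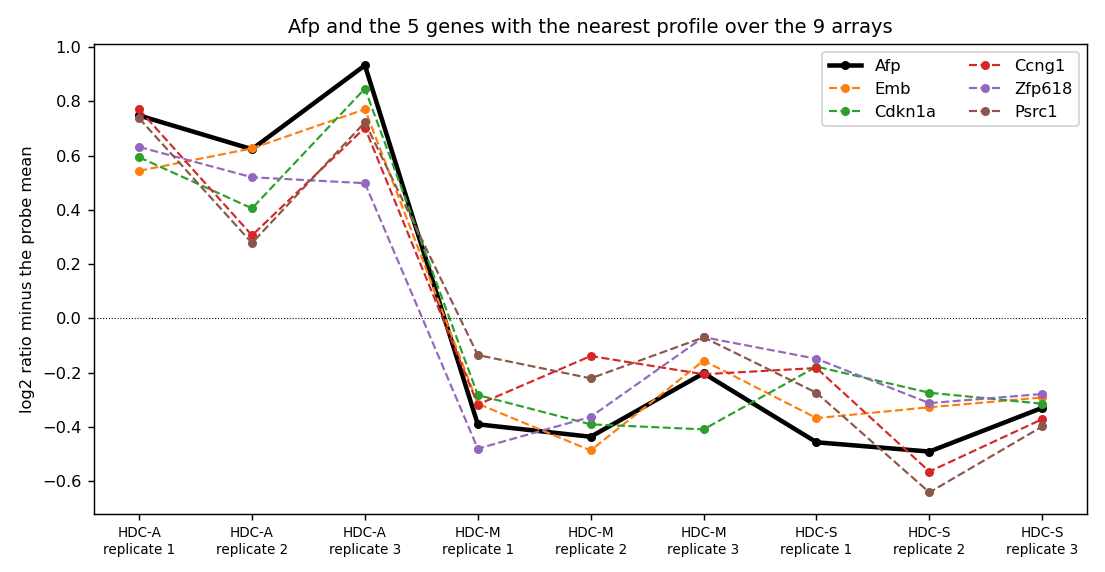
Log2 ratio minus the probe's mean over the 9 arrays (vertical axis) for Afp and its 5 nearest genes. Lines only join the values of a gene, and the arrays have no order within a group. Each of the 6 genes is above its mean in all 3 HDC-A pools and below it in the 6 others.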

How the data were processed

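Tumour RNA pools were hybridised with a common reference to 9 two-colour Agilent arrays, without dye swaps. The deposited scanner files hold spot intensity values in both dyes, written by Feature Extraction 8.5.1.1 per the file headers, and other columns with flags and control types, also per the file headers. The value table of the authors gives log10 ratios, Cy5 over Cy3: at all 43790 spots it matched the ratio column of the scanner files (largest difference 0), which settles scale and direction. Its medians per array ran from -0.00941 to 0, with no centring beyond the scanner's own ratio. The array coordinates carry no genome build and were not used.

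Mean signals were corrected by normexp (offset 50) and normalised by loess within arrays in limma 3.58.1 and R 4.3.3, with weight 0 for control and outlier spots, which were then left out. The log2 ratios of a probe's spots were averaged. Probes flagged as well above background in Cy5 on 3 or more of the 9 arrays were kept, 26870 in number, and 14304 were left out. One fit over all 9 arrays (lmFit, eBayes) without a block gave 3 contrasts. The Benjamini-Hochberg adjustment ran over all kept probes, with calls at an adjusted p of 0.05. Exact permutation tests of single values were two-sided. The number of arrays, 3 per group, limits the precision.

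Accessions were matched to RefSeq genes and named 22072 probes, and 16990 had no symbol. A gene with several probes was represented in the lists by its brightest, by mean intensity. The members and all lists were chosen with earlier results of these data known. The text names every member probe, the list genes that passed and those with the smallest p-values in a comparison, and the 5 genes nearest to Afp. In 8 gene lists and 7 marker lists, members were counted and no set test was run. Alternatives were no background correction, median centring, scaling, Cy5 alone, the authors' table, 2 other filters, 2 blocks, the first scan day alone and leaving out each array. The fit was tested on simulated data.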

Additional observations from a re-analysis of the deposited data

How the results depend on the processing

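No call of H19, Gpc3 or Zbtb20 arose in any alternative. In the fits without 1 array, HDC-A minus HDC-M ranged from 1.03 to 1.18 for Afp, from -0.0557 to 0.146 and from -0.0822 to 0.0761 for the H19 probes, from 0.07 to 0.46 for Gpc3 and from -0.0255 to 0.0446 for Zbtb20. HDC-S minus HDC-M then ranged from -0.13 to -0.01 for Afp, from -0.163 to 0.00837 and from -0.19 to -0.07 for the H19 probes, from 0.17 to 0.65 for Gpc3 and from -0.0393 to 0.199 for Zbtb20. HDC-S minus HDC-A ranged from -1.27 to -1.11 for Afp, from -0.21 to -0.01 and from -0.22 to -0.06 for the H19 probes, from -0.114 to 0.379 for Gpc3 and from -0.0448 to 0.193 for Zbtb20. Other reversals were within differences that passed no test. HDC-A minus HDC-M of Zbtb20 was -0.0236 without background correction, -0.155 with median centring, -0.117 with scaling and -0.0890 in the authors' table. Its HDC-S minus HDC-M was -0.144 with median centring, -0.0467 with scaling, -0.0621 in Cy5 alone and -0.000211 on the first scan day, and its HDC-S minus HDC-A was -0.244 in Cy5 alone and -0.0347 on the first scan day. The dimmer H19 probe had HDC-A minus HDC-M of 0.0123 with scaling and 0.0830 in Cy5 alone. Gpc3 in the authors' table had HDC-S minus HDC-M of -0.00606 and HDC-S minus HDC-A of -0.533. The cause was not tested.

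The counts of all probes called moved more: from 387 (HDC-A against HDC-M), 183 (HDC-S against HDC-M) and 1412 (HDC-S against HDC-A) to 2, 5 and 4 with median centring, to 50, 37 and 119 with scaling, to 191, 10 and 532 in Cy5 alone, to 16, 7 and 416 in the authors' table, and to 5, 30 and 9 on the first scan day, which has 6 arrays. HDC-S against HDC-M had 315 without background correction. Leaving out 1 array gave 21 to 218, 4 to 189 and 455 to 1389. Median centring moved the median over all probes to -0.11 in HDC-A against HDC-M and to -0.12 in HDC-S against HDC-M. The share of higher calls in HDC-S against HDC-M was 64.5% as reported, 48.6% with scaling, 40% with median centring, 50% in Cy5 alone, 54.3% with the replicate block and 23.3% on the first scan day, and in HDC-S against HDC-A it was 54.0% as reported, 42.0% with scaling and 22.2% on the first scan day. With the scan day as a block 189 and 85 passed against HDC-M. With the replicate number as a block 193 passed in HDC-A against HDC-M, 70 in HDC-S against HDC-M and 1126 in HDC-S against HDC-A, and among genes named it ended the calls of Ahsg against HDC-M and of Smad2. No pairing of pools by number was assumed in the main fit. Correlations of same-numbered deviations ran from -0.19 to 0.55 over 9 pairs, and those of differently numbered ones from -0.32 to 0.29. The second scan day holds replicate 3 of each group. A filter of well above background on all arrays dropped Afp, Gpc3 and the dimmer H19 probe, so it gave no value for them. Dim signals limit the precision for Afp outside HDC-A, for Zhx2 and for the reference level of Gpc3. Among 19 alternatives the call of Hmga2 held in 17 in both comparisons, Igf2r in 17 in both, Smad4 in 16, Cdkn1c in 13, Tyr in 15, Oca2 in 12 against HDC-M and 13 against HDC-A, Ahsg in 8 against HDC-M and 17 against HDC-A, and Smad2 in 3.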
